A study of Mus musculus with 13 samples.

Results

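Erbb3, Fabp7 and Ngfr are genes of Schwann cells and of the nerves that grow into the limb, and they were chosen by symbol from the deposited expression table of mouse limb buds. Of these 3 genes, 2 (Erbb3 and Ngfr) are among the 12880 genes in the table, and Fabp7 was not analysed here. The table lists only genes with a group mean of at least 3 RPKM (reads scaled by gene length and library depth, here with a further normalization by the authors) in at least 1 group.

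The study measured limb buds of separate embryos by RNA-seq in 13 libraries and 4 groups. At embryonic stage E11.5 there were 3 Sox9fl/- controls and 4 Sox9-/- mutants, labelled Sox9null. The E12.5 embryos were 3 Sox9fl/fl controls and 3 Sox9fl/flPrx1CreER mutants, labelled Sox9cKO. Each control of the earlier stage thus carried 1 Sox9 null allele and 1 floxed allele, while the controls of the later stage carried 2 floxed alleles and no Cre. Prx1CreER is a drug-inducible Cre recombinase under a Prx1 regulatory element, which is active in limb bud mesenchyme, and no source used here gives the time of induction. Whole limb buds were used, so every cell type of the limb contributed, and fewer cells of a type cannot be told apart from less RNA per cell.

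Schwann cells and their precursors come from the neural crest, reach the limb along growing axons, and later ensheathe and myelinate them. Erbb3 is the receptor through which neuregulin on axons reaches the Schwann cell lineage; it binds the ligand but has little kinase activity of its own, and signals in a pair with Erbb2. Ngfr (p75NTR) is the low-affinity receptor shared by the neurotrophins, found on neural crest cells, Schwann cell precursors, some sensory and sympathetic neurons and some mesenchyme. Fabp7 (brain lipid binding protein) is a fatty acid carrier of radial glia and Schwann cell precursors.

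In the mm10 build, Erbb3 (ENSMUSG00000018166) lies on the minus strand of chromosome 10 from 128567523 to 128589652 and overlaps 1 other annotated gene, the microRNA gene Mir6917. Ngfr (ENSMUSG00000000120) lies on the minus strand of chromosome 11 from 95568818 to 95587735 and overlaps no other annotated gene. Both are protein-coding, and each value below is a total over the gene. The sequence just before the annotated start of Ngfr is shown because the promoter source used holds Ngfr but not Erbb3. It is given from RefSeq (GRCm38.p6, chr11:95587736-95587948, minus strand, 213 bases, 5′ to 3′), with matches to the GC box GGGCGG in capitals.

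Ngfr upstream sequence: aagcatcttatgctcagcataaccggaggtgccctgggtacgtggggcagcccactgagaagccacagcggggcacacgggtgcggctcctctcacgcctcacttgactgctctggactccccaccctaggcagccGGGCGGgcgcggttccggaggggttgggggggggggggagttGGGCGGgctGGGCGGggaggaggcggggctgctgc

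GGGCGG, searched on both strands, had 3 matches in this stretch, and 27.4% of the 32851 RefSeq promoters had at least 1 match in a stretch of the same length and place. There was no match on either strand to ACAAT (the core of SOX factor motifs, in 24.9% of promoters), TATAAA (9.67%) or CAGCTG (11.0%). No promoter is shown for Erbb3.

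Both genes were higher at the later stage in controls and in mutants, and Erbb3 stood lower in the mutants than in the controls by an amount that did not pass the test across all genes. Erbb3 measured 9.560, 11.614 and 10.902 RPKM in the E11.5 controls, with a mean of 10.7 ± 1.04 (SD, n = 3). In the 4 Sox9null libraries Erbb3 was at 10.580, 9.825, 7.079 and 7.755 RPKM, a mean of 8.81 ± 1.66 (SD, n = 4). The ranges overlapped, since the first 2 Sox9null libraries fell inside the span of the controls and the other 2 lay below it. In the E12.5 controls Erbb3 was at 20.194, 19.540 and 20.636 RPKM, a mean of 20.1 ± 0.551 (SD, n = 3). The 3 Sox9cKO libraries had 14.251, 16.751 and 12.880 RPKM of Erbb3, a mean of 14.6 ± 1.96 (SD, n = 3). All Sox9cKO libraries lay below all controls of their stage and above every E11.5 library.

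Ngfr showed a smaller spread between groups. Its values were 12.819, 15.808 and 13.262 RPKM in the E11.5 controls (mean 13.96 ± 1.61, SD, n = 3). In Sox9null, Ngfr was at 14.806, 16.134, 12.511 and 12.578 RPKM (mean 14.01 ± 1.77, SD, n = 4). These 2 groups covered almost the same range. Ngfr in the E12.5 controls was at 21.895, 20.437 and 21.677 RPKM (mean 21.3 ± 0.786, SD, n = 3). The Sox9cKO libraries had 18.861, 20.755 and 16.406 RPKM (mean 18.7 ± 2.18, SD, n = 3). Sox9cKO replicate 2 reached into the range of the Ngfr controls, and the other 2 lay below it.

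**Figure D1:**
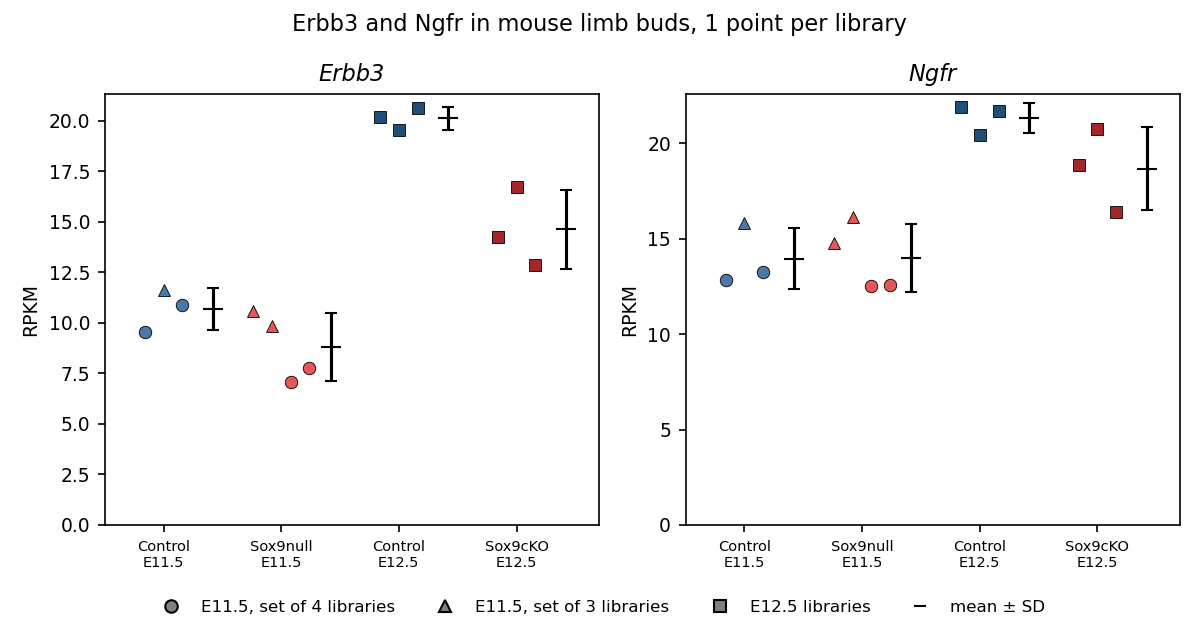
Erbb3 (left) and Ngfr (right) in RPKM on the vertical axis, with 1 point per library in the 4 groups; the bar beside each group is the mean and SD, and the marker shape gives the set of libraries. The Erbb3 values of Sox9cKO, 12.880 to 16.751 RPKM, lie below the 19.540 to 20.636 RPKM of the controls of that stage, while for Ngfr the groups of each stage overlap.

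Ordered by mean level, Erbb3 was highest in the E12.5 controls, then in Sox9cKO, the E11.5 controls and Sox9null. The last pair overlapped. For Ngfr the order was E12.5 controls, Sox9cKO, and then Sox9null and the E11.5 controls at means that differed by far less than their SDs. Ngfr was above Erbb3 on this per-length scale in 13 of 13 libraries.

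The E11.5 libraries fell into 2 sets by their correlation across genes. The larger holds 4 libraries, 2 of each genotype: E11.5 controls 1 and 3 with Sox9null 3 and 4. The smaller holds the remaining 3, which are control 2 with Sox9null 1 and 2, with correlations across genes of 0.979 to 0.989 within sets and 0.938 to 0.966 between them. What separates the sets is not given in the labels. Transcripts of Y-linked genes were present in all 3 E12.5 controls and in Sox9cKO replicate 3, and near 0 in Sox9cKO 1 and 2. Sox9 itself was at 35.757, 49.335 and 37.145 RPKM in the E11.5 controls, 20.592, 25.740, 25.039 and 22.690 in Sox9null, 37.543, 35.181 and 35.853 in the E12.5 controls, and 35.097, 28.652 and 32.241 in Sox9cKO. Sox9 was lower in every mutant library than in every control of its stage, by little at E12.5; a total over the gene does not separate the deleted exons from the rest. P-values measure the spread between embryos of a group, which at E11.5 includes the difference between the 2 library sets. The limma test used below shares 1 spread over the 4 groups.

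The first comparison asks what differed in the E11.5 limb bud without Sox9. Differences were tested as log2(RPKM + 1) with limma over all 12880 genes, with Benjamini-Hochberg adjustment. Erbb3 in Sox9null differed from the controls by -0.27 (SE 0.125, 95% CI -0.537 to 0.0069, log2), with an adjusted p of 1. Ngfr differed by 0.0022 (SE 0.103, 95% CI -0.223 to 0.227), again with an adjusted p of 1. Neither gene passed, and 0.0543% of all genes did (7 of 12880, all lower). Exact two-sided permutation tests gave p = 0.171 for Erbb3 and p = 0.914 for Ngfr, where the smallest that 3 against 4 libraries allow is 0.0571.

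Taken inside each library set, Erbb3 differed by -0.17 between 1 control and 2 mutants (smaller set) and by -0.41 between 2 and 2 (larger set). For Ngfr it was -0.03 and -0.05. Ngfr followed the sets rather than the genotypes in its values: the 3 libraries of the smaller set had 14.806 to 16.134 RPKM of Ngfr and the 4 of the other had 12.511 to 13.262. Erbb3 was lower in the mutants of either set than in the controls of the same set.

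The second comparison asks the same of the E12.5 limb bud after conditional deletion. Erbb3 was lower in all 3 Sox9cKO libraries, by 0.44 on the log2 scale (log2 difference -0.44, SE 0.133, 95% CI -0.733 to -0.151). The limma p of Erbb3 was 0.00628 before adjustment and 0.398 after it, so Erbb3 was not among the 25 genes called, 0.194% of all tested (0.14% lower). The exact permutation p was 0.1, the smallest that 3 against 3 allow, and 8.5% of all genes were likewise lower in Sox9cKO with no overlap. Ngfr differed by -0.19 (SE 0.11, 95% CI -0.429 to 0.0518, adjusted p = 1 with limma; exact permutation p = 0.2), with overlapping groups.

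Between the libraries with Y-linked transcripts, 3 controls against Sox9cKO replicate 3, the difference was -0.61 for Erbb3 and -0.36 for Ngfr. With the library set as a term, the limma adjusted p of Erbb3 at E12.5 was 0.0433 at the same difference of -0.44, with an SE of 0.0876. With sex as a term, Erbb3 differed by -0.62 with an adjusted p of 0.0571. Over all 23 alternative settings the adjusted p of this difference ranged from 0.0433 to 1.

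The difference between the 2 mutant effects, E12.5 minus E11.5, was -0.18 for Erbb3 (SE 0.182, 95% CI -0.575 to 0.221) and -0.19 for Ngfr (SE 0.151, 95% CI -0.52 to 0.138). Both had limma adjusted p-values of 1, and 0.0311% of all genes were called. With sex as a term the differences were -0.34 and -0.31. With 1 library left out they ranged from -0.273 to -0.0919 and from -0.277 to -0.105. A larger response of either gene at one stage than at the other was therefore not shown, and the intervals leave room for a difference of either sign. The 2 effects also differ in the kind of deletion and in the alleles of the controls, which cannot be told apart from stage here.

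The third question is how the 2 genes changed between the stages. In controls, Erbb3 rose by 0.86 on the log2 scale (SE 0.133, limma adjusted p = 0.00161), from a mean of 10.7 to 20.1 RPKM. Ngfr rose by 0.58 in controls (SE 0.11, limma adjusted p = 0.00398). In mutants Erbb3 rose by 0.68 (SE 0.125, limma adjusted p = 0.00585) and Ngfr by 0.39 (SE 0.103, limma adjusted p = 0.023). The groups of the 2 stages did not overlap for either gene in either comparison, as for 32.6% of all genes that were higher in controls and 23.7% in mutants. The background is wide: 21.7% of all genes were called between the stages in controls (16.5% higher) and 19.7% in mutants (14.5% higher).

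The rise of Ngfr in mutants depended on single libraries, with an adjusted p of 0.0766 without Sox9cKO replicate 1 and 0.111 without Sox9cKO replicate 2. It also missed the threshold under quantile normalization (0.0747), under median centring (0.0715) and in a fit of the mutants alone (0.0686). The Erbb3 rises and the Ngfr rise in controls passed under all 22 alternatives run for them. Stage cannot be told apart from the change in alleles between the control groups (Sox9fl/- and Sox9fl/fl) or between the mutant groups (Sox9-/- and Sox9fl/flPrx1CreER).

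Called genes between the stages split in controls into 2126 higher and 668 lower as the values stand. The split was 1477 to 1187 under quantile normalization and 1364 to 1935 under median centring. In mutants it was 1865 to 674, then 1336 to 1066 and 1152 to 1393. Median centring moved the median log2 difference of all genes in controls from 0.06 to -0.04. The rise of Erbb3 in controls was 0.76 and that of Ngfr 0.48 on the centred scale.

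The 13 libraries lay close to a line when Erbb3 was set against Ngfr, with r = 0.949 of log2(RPKM + 1). That value is a description: the libraries form separate groups by stage, by library set and by genotype, each with fewer than 6 libraries, so a relation among embryos could not be tested. Among the 3 Sox9cKO libraries, replicate 2 was highest and replicate 3 lowest for both genes.

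**Figure D2:**
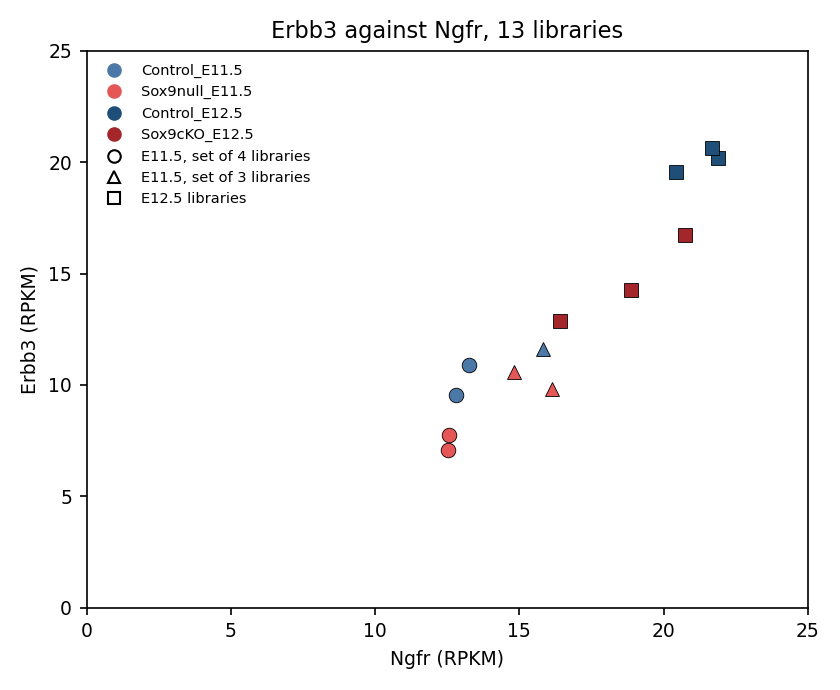
Erbb3 against Ngfr, both in RPKM, with 1 point per library; colour gives the group and shape the set of libraries. The E12.5 controls lie at the upper right (19.540 to 20.636 RPKM of Erbb3), Sox9cKO below them, and the Sox9null libraries of the set of 4 lowest (7.079 and 7.755 RPKM).

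The genes with the most similar profile over the 13 libraries were taken from 3418 genes with enough variation. For Erbb3 they were Angptl1 (r = 0.984), an angiopoietin-like secreted protein, Smoc2 (0.98), a matricellular protein, Mbnl2 (0.976), a splicing regulator, Hspb2 (0.976), a small heat shock protein, and Epb4.1l1 (0.973), a membrane skeleton protein. Ngfr was at rank 36 on that list and Sox10 at rank 526 (r = 0.825). For Ngfr they were Nedd4l (r = 0.989), a ubiquitin ligase, Flrt2 (0.986), a transmembrane guidance protein, Lrrn1 (0.983), a leucine-rich repeat membrane protein, Ube2ql1 (0.983), and Cryab (0.982), a small heat shock protein. Erbb3 was at rank 80 for Ngfr, and Sox10 at rank 1102 (r = 0.657). All these profiles share the stage difference and the library sets. None of the 10 named genes belongs to the glial list below.

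The glial list held 16 markers of Schwann cells and neural crest glia, of which 5 were measured: Sox10, Gfra3, Pmp22, Erbb3 and Ngfr. The other 11, among them Cdh19, Foxd3, Dhh, Egr2, S100b and Mbp, were not analysed here. The tissue was thus measured with few of the genes that define the lineage, and Sox10, the one most restricted to it, was low. Sox10 is the transcription factor that neural crest glia need throughout, and Erbb3 is one of the genes that depend on it. Since Ngfr, Pmp22 and Erbb3 can also be made by other limb cells, the values of Erbb3 and Ngfr are given as those of the genes and not of Schwann cells.

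Sox10 was at 2.756, 1.370 and 2.011 RPKM in the E11.5 controls and at 0.893, 0.998, 0.441 and 0.557 in Sox9null. At E12.5 it was at 3.430, 3.305 and 3.971 RPKM in controls and 1.089, 2.294 and 1.739 in Sox9cKO. Sox10 lay lower in all mutant libraries than in all controls of the same stage. The E12.5 controls were the only group where Sox10 reached the mean of 3 RPKM needed for listing (3.57). That limit favours its difference from Sox9cKO and its stage difference in controls. The log2 differences were -0.81 (SE 0.192, limma adjusted p = 0.416) at E11.5 and -0.78 (SE 0.205, limma adjusted p = 0.261) at E12.5, so neither was called. Sox10 differed by -0.29 inside the smaller E11.5 library set and by -1.17 inside the larger.

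Pmp22, a peripheral myelin protein that mesenchymal cells also make, was at 8.912, 11.988 and 10.248 RPKM in the E11.5 controls and 6.423, 8.338, 6.883 and 7.624 in Sox9null. At E12.5 it was at 18.258, 16.408 and 19.043 RPKM in controls and 13.176, 12.407 and 12.990 in Sox9cKO. Pmp22 did not overlap at either stage, with log2 differences of -0.45 (SE 0.0989, limma adjusted p = 0.352) and -0.45 (SE 0.106, limma adjusted p = 0.179). In a fit of the E12.5 libraries alone the adjusted p of Pmp22 was 0.0498. Gfra3, the receptor for artemin on sensory and sympathetic neurons and on Schwann cell precursors, had means of 3.58 ± 1.02 and 3.25 ± 0.914 RPKM (SD, n = 3 and 4) at E11.5. At E12.5 Gfra3 had 9.12 ± 0.571 in controls and 7.44 ± 0.555 in Sox9cKO (SD, n = 3 each; limma adjusted p = 1).

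Of the 5 measured glial genes, 0 were called in either mutant comparison, where 0.0543% of all genes were called at E11.5 and 0.194% at E12.5. Their median log2 difference was -0.27 at E11.5 (all genes, 0.0097) and -0.44 at E12.5 (all genes, 0.0127), each time the value of Erbb3 itself. Without Erbb3 and Ngfr, the median of the remaining 3 was -0.449 at E11.5 and -0.446 at E12.5. At an unadjusted limma p under 0.05 there were 363 genes at E11.5 and 697 at E12.5. The groups did not overlap for 2 of the 5 at E11.5, Sox10 and Pmp22, where 1.06% of all genes were lower with no overlap. At E12.5 there were 4 such genes, all but Ngfr, against 8.5% of all genes. Sox10 among them was listed only through the E12.5 controls. Between stages 4 of 5 rose in controls (Pmp22, Erbb3, Gfra3 and Ngfr), and 5 of 5 rose in mutants, Sox10 among them, where 16.5% of all genes rose in controls and 14.5% in mutants. The count in mutants was 3 under quantile normalization, median centring, the fit of the mutants alone and without Sox9cKO replicate 2. Gfra3 had the largest difference, 1.17 in controls (SE 0.182, limma adjusted p = 0.00162) and 1.01 in mutants (SE 0.17, limma adjusted p = 0.00412). The Sox10 rise in mutants was 0.64 (SE 0.192, limma adjusted p = 0.0374), missed the threshold in the same direction under 10 of 21 alternatives, and its call was also lost under quantile normalization, where it stood at -0.0038. It missed the threshold without Sox9null replicate 1, 3 or 4, Sox9cKO replicate 2 or 3, or any 1 of the E12.5 controls, with an adjusted p of up to 0.161. In controls Sox10 differed by 0.61 between stages (limma adjusted p = 0.054), and passed without the E11.5 control replicate 1 (0.0378) or Sox9cKO replicate 1 (0.0442).

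**Figure D3:**
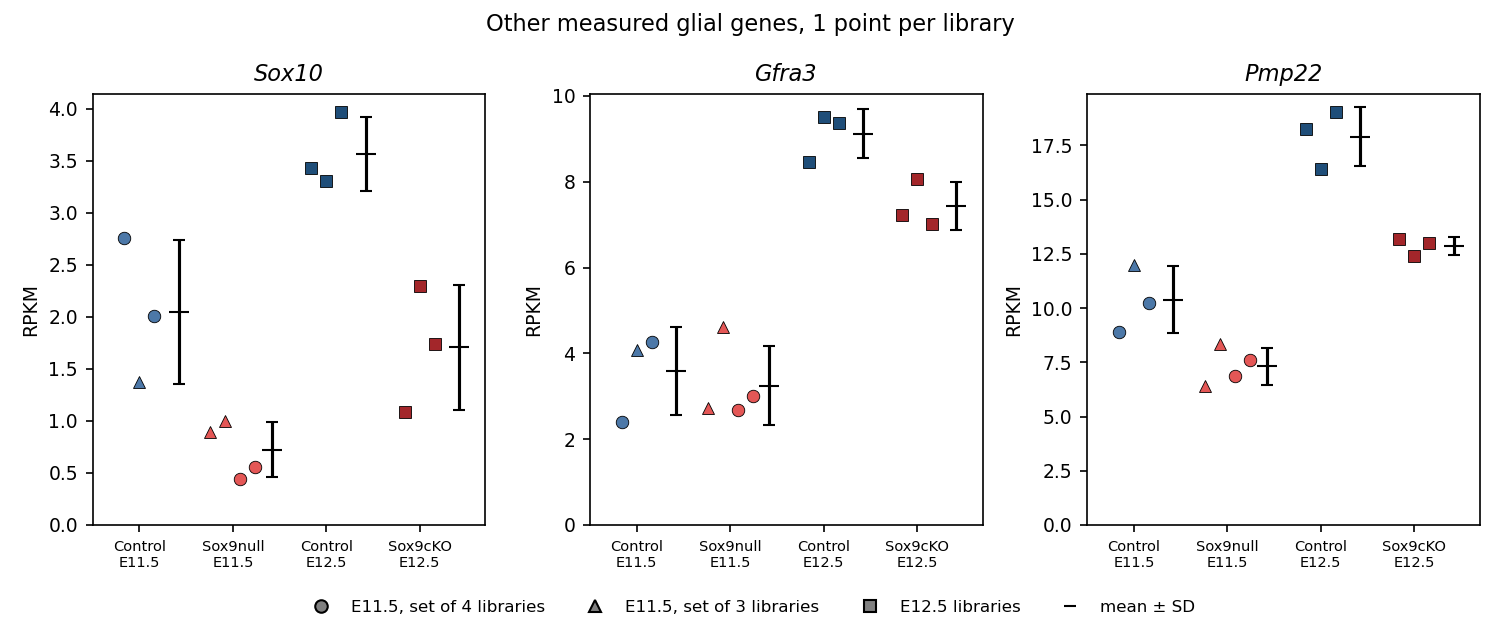
Sox10, Gfra3 and Pmp22 in RPKM on the vertical axis, with 1 point per library in the 4 groups; the bar beside each group is the mean and SD. The Sox9null values of Sox10 (0.441 to 0.998 RPKM) lie below those of the E11.5 controls (1.370 to 2.756), and Pmp22 has no overlap at either stage.

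Sums of markers of other limb cells also differed between groups, some higher and some lower in the mutants. The sum of the 10 erythroid genes was 531 to 555 RPKM in the E12.5 controls and 710 to 886 in Sox9cKO, and that of the 11 surface ectoderm genes was 196 to 210 and 166 to 195. The 10 measured cartilage genes of 11 summed to 249 to 329 in those controls and 124 to 179 in Sox9cKO. The 6 measured of 14 neuron and axon genes summed to 61.9 to 66.5 in controls and 69.9 to 78.7 in Sox9cKO. The glial sum was 69.2 to 74.7 and 51.0 to 60.3. It includes Erbb3 and Ngfr, with means of 20.1 and 21.3 RPKM in those controls, and so in part repeats their values. Of these 6 neuron genes 4 lay above 0 and 2 below in Sox9cKO. Below 0, Nefl, a neurofilament, had -0.29 (4.53 to 3.54 RPKM) and Nefm -0.37 (5.69 to 4.40 RPKM), both with a limma adjusted p of 1. Among the 4 above 0, Tubb3 had 0.26 (17.72 to 21.47 RPKM, limma adjusted p = 0.865). Stmn2, also above 0, had 0.55 (5.785 to 8.934 RPKM, limma adjusted p = 0.539). The sums of the 10 endothelial genes (170 to 181 and 181 to 192), the 10 measured of 11 muscle progenitor genes (174 to 193 and 140 to 186), the 7 measured of 8 macrophage genes (57.1 to 67.6 and 46.6 to 76.7) and the 3 measured of 10 melanoblast genes (19.8 to 20.7 and 16.8 to 20.3) overlapped. At E11.5 the glial sum was 36.5 to 44.9 RPKM in controls and 29.6 to 39.9 in Sox9null, and the neuron sum 48.7 to 55.8 and 56.1 to 61.8. Between stages in controls, lists of other cell types also held genes that rose, where 16.5% of all genes rose. In 3 lists most rose: 7 of 10 muscle progenitor genes (list median 1.04), 8 of 10 cartilage genes (1.33) and 6 of 7 macrophage genes (0.79). The glial median was 0.74. Fewer rose in the others: 3 of 11 surface ectoderm (0.25), 2 of 6 neuron (0.26), 1 of 3 melanoblast (0.61), 1 of 10 endothelial (0.15) and 0 of 10 erythroid genes (-0.17). In mutants, where 14.5% of all genes rose, the first 3 lists had 7 of 10 (0.64), 7 of 10 (0.77) and 5 of 7 (0.79). The glial median there was 0.68, which is the value of Erbb3, and 0.74 without Erbb3 and Ngfr. The other lists had, in the same order, 2 of 11 (-0.04), 2 of 6 (0.41), 2 of 3 (0.64), 2 of 10 (0.12) and 1 of 10 (0.14). In each comparison 1 muscle progenitor gene and 1 erythroid gene fell, as did 1 cartilage gene in mutants. No measured marker of these lists was listed at 0 in any library except Matn1, a cartilage matrilin. Their part in the Erbb3, Ngfr and Sox10 values was not tested.

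The ErbB list held the receptors, their ligands and the proteins that attach to or limit them, of which 10 of 19 were measured. Among the receptors, Erbb2, the signalling partner of Erbb3, was at 25.6 ± 2.41 RPKM (SD, n = 3) in the E11.5 controls and 25.7 ± 2.32 (SD, n = 4) in Sox9null. Erbb2 was at 29.6 ± 0.366 in the E12.5 controls and 27.6 ± 0.844 in Sox9cKO (SD, n = 3 each), and so stood above Erbb3 in every group. Egfr was at 3.24 ± 0.665, 3.65 ± 1.51, 8.56 ± 1.8 and 5.39 ± 1.5 RPKM (SD, n = 3, 4, 3 and 3) in the same order of groups. Erbb4 and the neuregulins Nrg1, Nrg2, Nrg3 and Nrg4, the ligands of Erbb3, were not analysed here.

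In the ErbB list 0 of 10 members were called in either mutant comparison, where 0.0543% of all genes were called at E11.5 and 0.194% at E12.5. Tgfa, a ligand of Egfr, came closest. It was at 4.863, 3.570 and 4.291 RPKM in the E12.5 controls and 2.567, 2.156 and 1.910 in Sox9cKO, without overlap. At E12.5, 5 of the 10 were lower in Sox9cKO without overlap (Tgfa, Errfi1, Lrig1, Erbb3 and Erbb2), as were 8.5% of all genes. Of the 10, 8 lay below 0 and 2 above (list median -0.097, all genes 0.0127). Only in the E12.5 controls did Tgfa reach the mean of 3 RPKM needed for listing (4.24), which favours its difference from Sox9cKO and its rise in controls. The log2 difference of Tgfa was -0.70 (SE 0.13, limma adjusted p = 0.0614), and it passed in 4 of the alternatives, without the E12.5 control replicate 2 (0.0387) among them. Between stages 6 of the 10 rose in controls and 0 fell (Erbb3, Egfr, Tgfa, Hbegf, Errfi1 and Lrig1), with a list median of 0.30 against 0.06 for all genes, of which 16.5% rose. In mutants 4 rose (Erbb3, Tgfa, Errfi1 and Lrig1) with a median of 0.21, where 14.5% of all genes rose. Under quantile normalization 2 rose in mutants, since Tgfa (0.22, adjusted p = 0.221) and Lrig1 (0.0798) no longer passed.

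Of the ErbB members other than Erbb3, Egfr rose by 1.17 in controls (SE 0.264, limma adjusted p = 0.00981) and Tgfa by 0.98 (SE 0.13, limma adjusted p = 0.000812). Errfi1, a feedback inhibitor of ErbB receptors, rose by 0.39 in controls and 0.28 in mutants. Lrig1, which lowers the amount of receptor, rose by 0.16 and 0.15. The call for Lrig1 was lost with median centring (adjusted p = 0.255 in controls and 0.174 in mutants), and in mutants without Sox9cKO replicate 2 (0.0927) or replicate 3 (0.0538). Hbegf, another Egfr ligand, rose by 0.49 in controls, and this call was lost without the E11.5 control replicate 2 (0.0884) or any 1 of the 3 E12.5 controls (0.075 to 0.088). Rnf41, an E3 ligase for Erbb3, and the adaptors Shc1 and Grb2 did not pass in any of the 5 comparisons.

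The neurotrophin list gave 12 of 18 members measured. Ntrk2 and Ntrk3, high-affinity neurotrophin receptors, were not analysed here. In the mutant comparisons 0 of 12 members were called at either stage, with medians of 0.0026 and 0.0152. Of all genes 0.0543% were called at E11.5 and 0.194% at E12.5.

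Between stages 4 neurotrophin members rose and 1 fell in controls, and 4 rose and 1 fell in mutants, where of all genes 16.5% rose and 5.19% fell in controls, and 14.5% rose and 5.23% fell in mutants. The total of 5 called in mutants was 2 without Sox9cKO replicate 1 or 2, under quantile normalization and in the fit of the mutants alone. The total of 5 in controls was 3 without E12.5 control replicate 1 or 2 and under quantile normalization. Kidins220, a membrane scaffold downstream of neurotrophin receptors, rose by 0.35 in controls (SE 0.0658, limma adjusted p = 0.00371) and 0.38 in mutants (SE 0.0615, limma adjusted p = 0.00355). Ntf5 (neurotrophin-4) rose in controls by 0.46, a call lost without the E11.5 control replicate 2 (0.0715), E12.5 control replicate 1 (0.0848) or replicate 2 (0.062). Sort1, the sortilin that pairs with Ngfr for pro-neurotrophins, rose in mutants by 0.18, which was lost without any 1 of the 3 Sox9cKO libraries (adjusted p 0.0505 to 0.115). Maged1, an adaptor that binds Ngfr, fell by 0.34 in controls and 0.29 in mutants. The Maged1 calls were lost under quantile normalization (0.124 and 0.0573). They were also lost in controls without E11.5 control 1 or 3 or any 1 of the E12.5 controls (0.0539 to 0.0743), and in mutants without Sox9null 3 or 4, any 1 of the Sox9cKO libraries, or E12.5 control 1 or 3, which enter through the shared spread (0.0502 to 0.104).

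**Figure D4:**
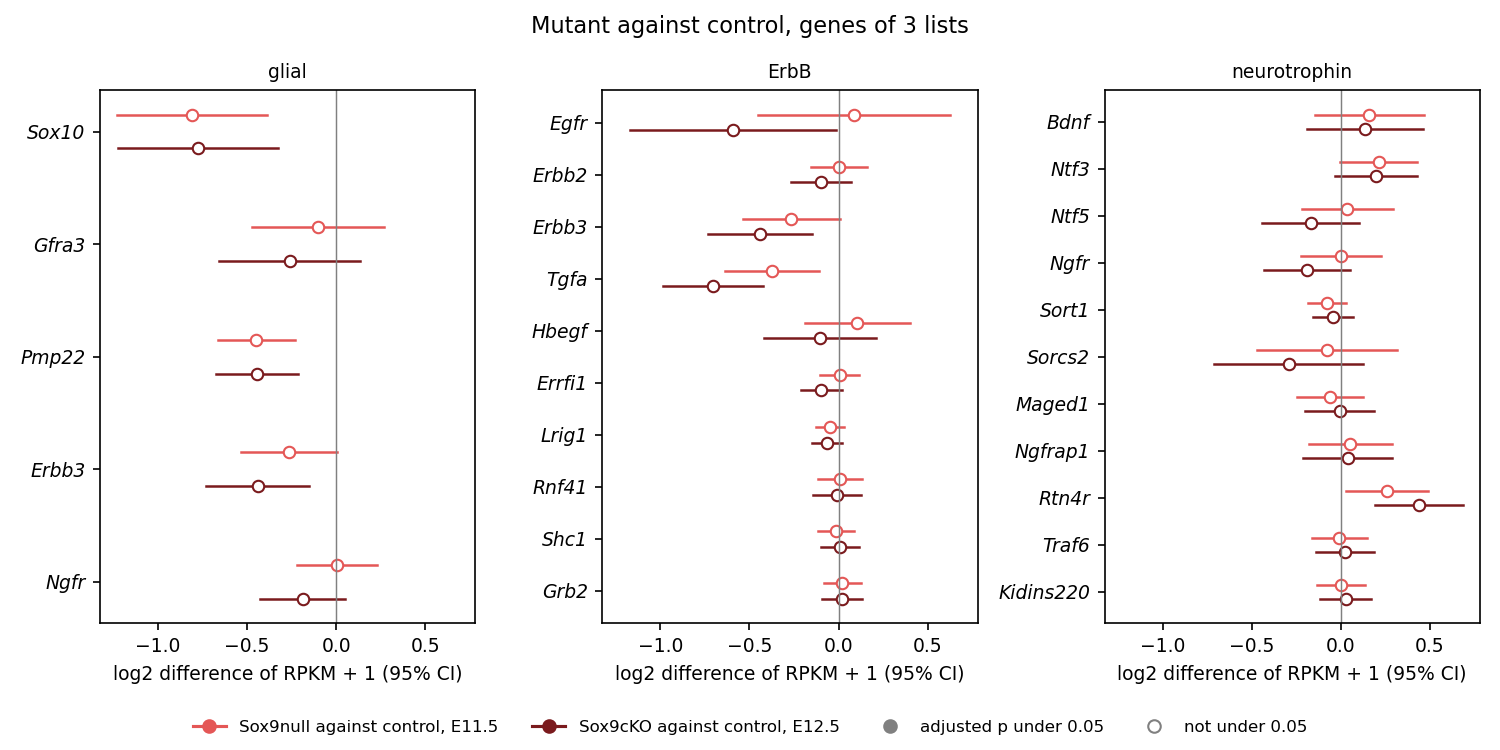
Log2 difference of RPKM + 1, mutant minus control, with its 95% confidence interval on the horizontal axis, for the measured genes of the glial (5), ErbB (10) and neurotrophin (11 of the 12) lists at E11.5 and E12.5. Every point is open, since no gene had an adjusted p under 0.05; Sox10 lies at -0.81 and -0.78 and Ngfr at 0.0022 and -0.19.

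Fabp7 belongs to a family of small lipid carriers, of which 4 of 14 were measured, Fabp5, Crabp1 and Crabp2 among them. Crabp1 and Crabp2, the retinoic acid binding proteins, were the highest, at 51.93 to 77.47 and 71.188 to 98.862 RPKM in the E11.5 controls. Of the 4, 0 were called between mutants and controls, where 0.0543% of all genes were called at E11.5 and 0.194% at E12.5. Fabp5, Crabp1 and Crabp2 were not called between stages.

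**Figure D5:**
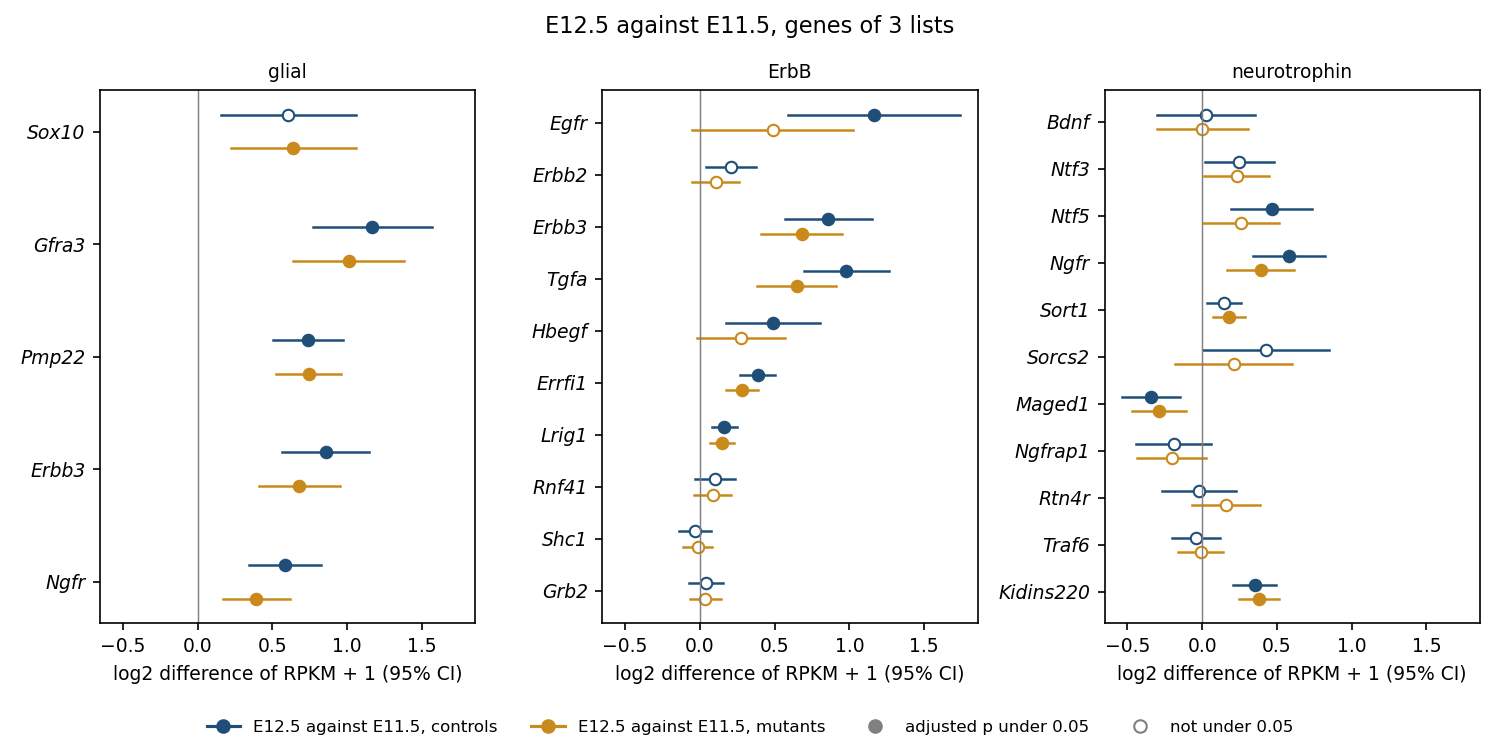
Log2 difference of RPKM + 1, E12.5 minus E11.5, with its 95% confidence interval on the horizontal axis, in controls and in mutants for the same genes; filled points have an adjusted p under 0.05. Erbb3 lies at 0.86 in controls and 0.68 in mutants, Ngfr at 0.58 and 0.39, and Maged1 is the one filled point below 0 in each comparison.

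The authors' deposited table gives a p-value for each gene over the 4 groups together, adjusted for the false discovery rate. In the authors' deposited table it was 0.00305 for Erbb3 and 0.0124 for Ngfr. That test does not say which groups differ.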

How the data were processed

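RNA from limb buds was sequenced in 13 libraries, and the values are those of the deposited table. Per the submitters' processing notes, CASAVA 1.8 and mm10 were used; no source used here names the aligner, the counting, the strand setting or the annotation. The deposited unit is normalized RPKM per gene and library, and genes under a mean of 3 in every group were left out by the authors, per the file headers. Per the file headers, the authors' p-value comes from a one-way ANOVA over the 4 groups with Benjamini-Hochberg adjustment. Columns were matched to groups by their headers, which also give the genotypes. No pair of libraries held identical values. Library depth is unknown. Low values of short genes (at most 300 bases) were compared with whole multiples of a range of steps. At the best step of each library, 38.3% to 48.6% lay within 0.15 of a whole multiple. Read counts were therefore not recovered, which may also reflect the gene lengths, the range of steps or the authors' normalization. No count model was used, and the precision of single values from counting is unknown.

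Limma 3.58.1 was run on log2(RPKM + 1) (R 4.3.3; trended prior, robust) with 1 mean for each group over all 13 libraries. Genes needed at least 1 RPKM in at least 3 libraries, which removed 0. P-values were two-sided and adjusted over 12880 genes; calls are at adjusted p under 0.05. On this scale the differences of low genes come out too small. Recovery of known changes was tested on simulated data. Single genes were also tested by exact two-sided permutation (scipy 1.17.1). Of the identifiers, 12715 matched GENCODE M21, the source of positions.

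The members and lists were chosen with earlier results of these data known. Genes named were the 3 members, measured members of the glial, ErbB, lipid carrier and neurotrophin lists, and the 5 genes with the highest r for each member (predicted genes and those with an SD under 0.2 left out). Alternatives changed the pseudocount (0.1), the filter (none, or 5 RPKM), the scaling, the variance model, the libraries, and added library set, sex or replicate number. Sex was read from 4 Y-linked genes. A few genes that these lists take are counted in the list totals but not reported here.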

Additional observations from a re-analysis of the deposited data

Results flagged for a closer look

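In 29 groups of 4 libraries looked at (1 for each measured gene of the glial, ErbB, lipid carrier and neurotrophin lists), 1 held a library far from the other 3, and chance marks about 1 in 20 such groups. Rtn4r, the Nogo receptor that can signal together with Ngfr, was at 9.951 RPKM in Sox9null replicate 2, while the other Sox9null libraries had 8.813, 8.720 and 8.840 RPKM.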

How the results depend on the processing

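Each of the 10 results for Erbb3 and Ngfr was recomputed under 22 or 23 alternatives, and most kept their direction and their side of the threshold. Ngfr in Sox9null against control, which lay at 0.0022, changed sign under quantile normalization (-0.0132), median centring (-0.0213), library set as a term (-0.0432) and sex as a term (-0.0148), and ranged from -0.064 to 0.0888 when 1 library was left out. Without E11.5 control 1 it was -0.0525, without E11.5 control 3 -0.0297, without Sox9null 1 -0.0252 and without Sox9null 2 -0.064. Erbb3 in Sox9cKO passed with the library set as a term (-0.4419), a term whose sets exist only at E11.5. The rise of Ngfr in mutants missed the threshold under quantile normalization (0.3132), median centring (0.3172) and the fit of the compared groups alone (0.3921), and ranged from 0.3166 to 0.4775 with 1 library left out. Sox10 in mutants between stages turned to -0.0038 under quantile normalization, and Gfra3 in Sox9null ranged from -0.3052 to 0.0099 (without E11.5 control 3) with 1 library left out. The cause was not tested.

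The number of genes called varied more. For Sox9null it was 7, with 13 under median centring, 41 with the library set as a term, 0 with only the groups compared (limma, 236 at an unadjusted p under 0.05) and 2 to 8 with 1 library left out. For Sox9cKO it was 25, with 57 under quantile normalization, 105 with the library set as a term and 9 to 45 with 1 library left out. For the difference of effects it was 4, with 2 under a pseudocount of 0.1, 2 under the filter of 5 RPKM and 0 to 10 with 1 library left out (at 0, without Sox9cKO 2 or 3, 412 and 241 genes had an unadjusted limma p under 0.05). Between stages in controls it was 2794, with 6916 with the library set as a term and 1379 to 3374 with 1 library left out. In mutants it was 2539, with 6364 with the library set as a term, 922 with only the groups compared and 707 to 2976 with 1 library left out. Where leaving out a library left 2 in a group, these were assumed to vary like the other groups.

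Replicate numbers did not pair the libraries: deviations of same-numbered libraries correlated at -0.435, 0.635 and 0.441 at E11.5 and at 0.169, 0.027 and -0.117 at E12.5. With the replicate number as a block, Sox9cKO had 16 genes called and the difference of effects 0 (limma, 462 at an unadjusted p under 0.05), Erbb3 stood at -0.22 and -0.44, Ngfr at 0.05 and -0.19, and no call of either changed. No block was used between stages, where equal numbers name embryos of different ages, and the fit of only the groups compared was not run for the difference of effects. The unknown depth limits low genes such as Sox10 most.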

Other observations

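The ratio of Erbb3 to Ngfr within a library was looked at after the values of both genes had been seen, so it is a description with no test. It was 0.735 to 0.822 in the E11.5 controls and 0.566 to 0.715 in Sox9null, without overlap, although each gene alone overlapped between these groups. At E12.5 the ratio was 0.922 to 0.956 in controls and 0.756 to 0.807 in Sox9cKO. The E12.5 controls had the highest ratio (mean 0.944 ± 0.0184, SD, n = 3), and Sox9null the lowest (mean 0.627 ± 0.0628, SD, n = 4). Sox9cKO (mean 0.783 ± 0.0258, SD, n = 3) overlapped with the E11.5 controls (mean 0.768 ± 0.0475, SD, n = 3). A ratio shows that the 2 genes differed unequally, and not which of them changed.

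Rtn4r was at 11.125, 9.582 and 10.099 RPKM in Sox9cKO and at 7.499, 6.792 and 7.627 in the controls of that stage. The log2 difference of Rtn4r, 0.44 (SE 0.112), did not pass (limma adjusted p = 0.234). Rtn4r was not alone in the neurotrophin list. Ntf3 was at 19.3 to 21.6 RPKM in Sox9cKO and 16.8 to 18.3 in those controls. Sorcs2 lay the other way, at 9.07 to 10.6 and 11.7 to 12.4 RPKM. Neither was called.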
